A study of Mus musculus with 9 samples.

Results

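The 10 genes described here encode proteins that bundle, crosslink, anchor or contract actin filaments: the plastins Lcp1 and Pls3, villin (Vil1), fascin (Fscn1), ezrin (Ezr), the alpha-actinins Actn1 and Actn4, transgelin (Tagln), the myosin light chain kinase Mylk and smooth muscle alpha-actin (Acta2). Every non-control probe set whose single gene symbol was one of these names was taken, which gave 21 of 45037 probe sets and 10 of the 18193 genes with such a probe set. Fscn1 had 4 probe sets, Actn1, Mylk and Acta2 had 3 each, Lcp1 and Ezr had 2 each, and Pls3, Vil1, Actn4 and Tagln had 1 each. Values are log2 signals of Affymetrix arrays, so a difference of 1 is a 2-fold difference, and signals of different probe sets are not compared with each other.

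RNA came from 3 cultured mouse lines, all of strain background C57/BL6 x sv129, with 3 arrays per line. The wild-type line (WT-NLE) and the knockout line (NULL-NLE) are non-tumorigenic epithelial lines grown from tracheas of mice aged 3 weeks, with Gprc5a intact in the former and knocked out in the latter. The tumour line, MDA-F471, came from a lung adenocarcinoma of a female Gprc5a-knockout mouse, killed 16 months after injection of the tobacco carcinogen NNK, so the knockout and tumour lines both lack Gprc5a. Each group is 1 cell line. Organ, NNK exposure, age and tumour origin cannot be told apart in the tumour comparisons. Between tumour and wild-type lines Gprc5a genotype differs as well and cannot be separated from these. Between knockout and wild-type lines genotype cannot be told from line. The p-values reflect array-to-array variation alone, which may be technical.

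Actin filaments give epithelial cells their shape, their surface projections and their pulling force. Plastins, fascin and villin pack filaments into tight bundles, as in filopodia and microvilli, whereas alpha-actinins join them more loosely at junctions and along stress fibres, and ezrin ties filaments to the plasma membrane. Contraction begins when myosin light chain kinase phosphorylates myosin, and smooth muscle alpha-actin and transgelin are best known from smooth muscle cells and myofibroblasts. L-plastin (Lcp1) is the plastin of white blood cells, T-plastin (Pls3) that of most solid tissues, and villin is the bundler of the intestinal brush border.

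The arrays resembled each other within lines, with Pearson's r of 0.990 to 0.996 across all non-control probe sets, which are not independent replicates, and array medians lay between 6.28 and 6.34. Gprc5a, the targeted gene, fell by 1.41 ± 0.11 (SE) in the knockout line and fell by 1.54 ± 0.11 in the tumour line against the wild-type line, which checks the labels only if its probe set reads the deleted part. The epithelial adhesion molecule Epcam read 11.52 to 12.12 on the 9 arrays. Other epithelial markers were not as even, by the call defined below. Of 12, 2 rose and 1 fell between knockout and wild-type lines, and 5 rose and 2 fell between tumour and knockout lines. Between tumour and wild-type lines 6 rose and 3 fell. These are 25%, 58.3% and 75% of the list, beside 4.88%, 14.2% and 16.6% of all genes. Surfactant protein C (Sftpc), which marks alveolar type II cells, read 5.50 to 5.93, within the range of the bacterial control probe sets, whose highest value was 5.96 and whose 95th percentile, 5.15, serves as the floor for lower bounds. Of 7 alveolar type II and secretory markers, 0 were called between the tracheal lines. In each tumour comparison 1 rose and 1 fell (28.6%, beside 14.2% and 16.6% of all genes). Against knockout, Sftpd rose by 1.38 ± 0.11, from 6.92 to 8.30, and Cyp2f2 fell by 5.55 ± 0.24, from 11.32 to 5.77. The beta-actin control, 3′ minus 5′ signal, which is higher where RNA is degraded or labelling stops early, was 0.75, 1.09 and 1.78 on wild-type replicates 1 to 3, 0.90 to 0.95 on the knockout arrays and 0.37, 0.60 and 0.74 on tumour replicates 1 to 3 (exact permutation p = 0.1 for tumour against either line, the smallest that 3 against 3 arrays can give). The same difference for the Gapdh control was 0.33, 0.90 and 1.20, then 0.52, 0.47 and 0.57, then 0.21, 0.45 and 0.75, and its lines overlapped (exact permutation p = 0.7 for tumour against knockout and 0.3 against wild-type).

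Lcp1, Mylk and Vil1 were higher in the tumour line than in both tracheal lines, Fscn1 and Acta2 were lower, and Acta2 was also lower in the knockout than in the wild-type line. Differences are given in the order knockout minus wild-type, tumour minus knockout, tumour minus wild-type. A probe set was called when its limma adjusted p over all 45037 probe sets was under 0.05 and the difference at least 2-fold. In the first comparison 0 of the 21 member probe sets were called higher and 1 lower (4.76% in all), where 3.71% of all probe sets were called, 1.61% higher and 2.11% lower. At an unadjusted p under 0.05 there were 3 of 21 (14.3%), where 27.4% of all probe sets were.

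In the second comparison 6 of 21 were called higher and 4 lower (47.6% in all), where 11.4% of all probe sets were called, 6.19% higher and 5.18% lower. In the third, which shares the tumour arrays with the second, 6 were again higher and 4 lower, where 13.1% of all were called, 6.69% higher and 6.42% lower. The arrays of the lines compared did not overlap on 5, 17 and 15 of the 21, as against 31.5%, 46.4% and 47.6% of all probe sets. Earlier results of these data were known when members and lists were chosen. Their shares are therefore descriptive, here and below, and are not tests against all probe sets or genes. Called probe sets of the same gene, as for Lcp1, Mylk and Fscn1, are not independent results.

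Each gene was also represented by its probe set with the highest mean. In the first comparison 0 of 10 genes were then higher and 1 lower, where 4.88% of all genes were called, 1.9% higher and 2.98% lower. Between tumour and knockout lines 3 were higher and 2 lower, where 14.2% of all genes were called, 7.79% higher and 6.38% lower. Between tumour and wild-type lines 3 were higher and 2 lower, where 16.6% of all genes were called, 8.09% higher and 8.46% lower. The median difference of the 10 genes was 0.00, 0.36 and 0.34, beside 0.00, 0.00 and 0.01 over all genes.

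**Figure D1:**
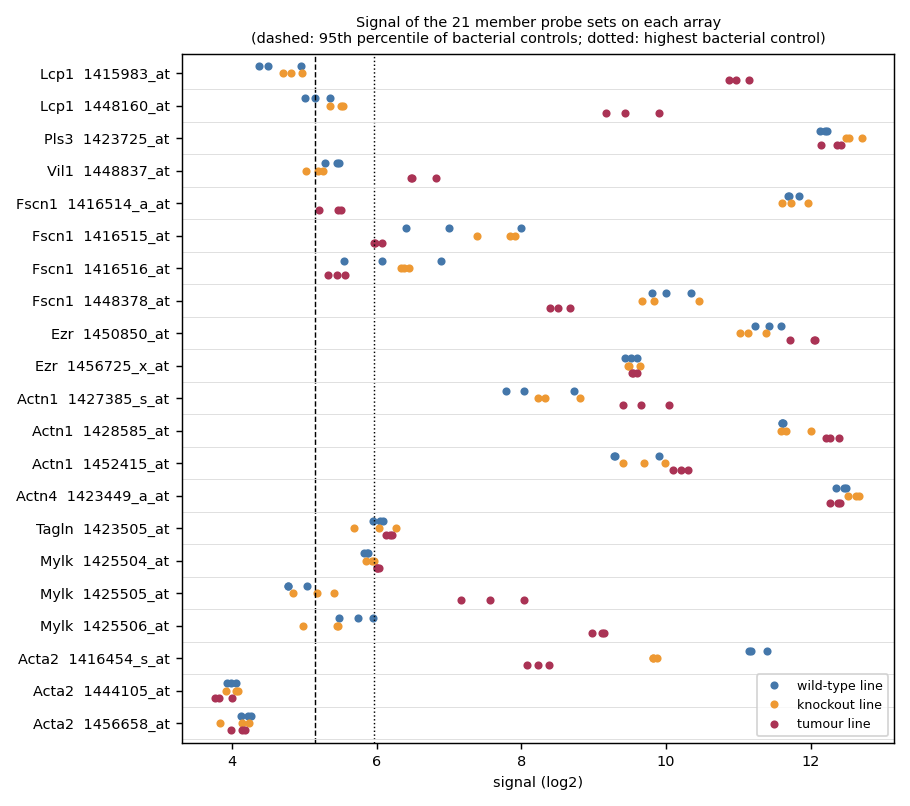
Log2 signal (x axis) of each of the 21 member probe sets (y axis) on the 3 arrays of each line, 1 point per array; the dashed line is the floor of 5.15 and the dotted line the highest bacterial control, 5.96. Both Lcp1 probe sets and a pair of Mylk probe sets lie to the right in the tumour line, the Fscn1 probe sets and the bright Acta2 probe set lie to the left, and the other Acta2 probe sets lie under the floor in every line.

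Start-site sequences of Lcp1, Vil1 and Fscn1 are shown because these bundlers separated the tumour line in opposite directions. The promoter table from RefSeq (build GRCm38.p6) held 12 windows for 9 of the 10 members, each from 250 bases before to 50 after an annotated start; Tagln was not in it. Each line gives bases upstream of the start on the + strand, 5′ to 3′, outside the annotated gene, with capitals for a match to a searched motif.
Lcp1, chr14:75131003-75131104: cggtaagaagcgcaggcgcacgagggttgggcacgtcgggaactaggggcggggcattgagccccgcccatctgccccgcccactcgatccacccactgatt
Vil1, chr1:74409264-74409383: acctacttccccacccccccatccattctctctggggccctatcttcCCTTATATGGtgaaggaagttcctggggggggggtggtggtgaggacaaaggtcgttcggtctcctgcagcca
Fscn1, chr5:142960235-142960354: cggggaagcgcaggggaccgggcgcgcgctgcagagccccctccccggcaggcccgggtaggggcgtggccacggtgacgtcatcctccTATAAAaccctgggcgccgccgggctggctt

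The motifs searched on both strands of all 32851 windows were the CArG box, which serum response factor binds, the TATA box TATAAA, the AP-1 site TGANTCA and the TEAD site GGAATG. The CArG box was searched only as CCWWWWWWGG, where W is A or T. Forms with another base inside were not searched, so a window without a match may still hold one. Matches in the printed stretches do not overlap each other. The Vil1 window held a CArG box whose first base lay at -73 from the start. This exact form was found in 1.63% of all windows and in none of the other windows of the members. The Fscn1 window held a TATA box at -31, and 13.6% of all windows hold one. Counted from the start, Mylk had an AP-1 match at -64, Ezr at -32 and Actn4 at -169, a motif in 7.81% of all windows. TEAD matches, present in 14.7% of all windows, lay at -158 in Mylk, -216 in Actn4 and -146 in Acta2, at -113 in the second Lcp1 window and in every Pls3 window. The Lcp1 window printed here and the Actn1 window held no match to the 4 motifs as searched. A match is a description of letters, not a binding site.

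Lcp1 had the largest rise among the members. Its probe set 1415983_at read 4.37, 4.96 and 4.49 on the wild-type arrays, 4.82, 4.97 and 4.71 on the knockout arrays and 10.97, 10.87 and 11.15 on the tumour arrays. All tracheal arrays lay under the floor and all tumour arrays far above it. The tumour signal was at least 57.7-fold above that of either tracheal line, a bound set by the floor, with log2 differences of 6.17 ± 0.15 against knockout (SE, n = 3 arrays each, limma adjusted p = 2.84e-11) and 6.39 ± 0.15 against wild-type (adjusted p = 1.68e-11). With the highest bacterial control as the floor the bound was 32.9-fold.

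The second Lcp1 probe set, 1448160_at, gave the same order with a smaller difference. It read 5.0, 5.15 and 5.36 on the wild-type arrays, 5.35, 5.50 and 5.54 on the knockout arrays and 9.90, 9.43 and 9.17 on the tumour arrays. The tumour line was 16.4-fold above the knockout line (4.04 ± 0.16, adjusted p = 2.64e-09) and 20.1-fold above the wild-type line (4.33 ± 0.16, adjusted p = 1.18e-09); the tracheal signals lay under the highest bacterial control, against which the tumour signal was at least 11.6-fold higher. Knockout and wild-type lines were not called apart by either probe set (0.23 and 0.29, adjusted p = 0.367 and 0.290).

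Because Lcp1 is a leukocyte gene, 14 leukocyte markers were read beside it. Of the 14, 1 was called higher in the tumour line, the tetraspanin Cd53, by 1.53 ± 0.16 against knockout and 1.86 ± 0.16 against wild-type. In each of these comparisons 0 were lower and 7.14% were called, beside 14.2% and 16.6% of all genes. An unadjusted limma p under 0.05 was reached by 28.6% in each, where 48.5% and 51% of all genes did. Ptprc (CD45), which all leukocytes carry, read 4.22 to 4.77 on the 9 arrays, under the floor everywhere, and Coro1a read 4.94 to 5.31. Others lay higher without overlap but under 2-fold: the integrin Itgb2 exceeded its wild-type signal by 0.73 ± 0.09 on the knockout arrays and by 0.90 ± 0.09 on the tumour arrays (limma adjusted p = 0.000146 and 7.29e-06). Hcls1 was 0.58 ± 0.10 and 0.43 ± 0.10 higher in the tumour line than in the knockout and wild-type lines (adjusted p = 0.000453 and 0.00351). The part of these genes' cell types in the Lcp1 result was not tested. The log2 of the list's summed signal was 9.96 to 10.01 on the wild-type arrays, 10.05 to 10.23 on the knockout arrays and 10.22 to 10.26 on the tumour arrays.

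Pls3, the plastin of solid tissues, had a high signal in all 3 lines. It read 12.13, 12.20 and 12.22 on the wild-type arrays, 12.49, 12.53 and 12.71 on the knockout arrays and 12.36, 12.14 and 12.42 on the tumour arrays. The knockout arrays lay above all others, but the differences were 0.39 against wild-type (95% interval 0.18 to 0.61, adjusted p = 0.0166) and, for tumour minus knockout, -0.27 (-0.49 to -0.05, adjusted p = 0.0538), each under 2-fold. Tumour and wild-type arrays overlapped, with a difference of 0.12 (-0.10 to 0.34). The remaining plastin, Pls1 of intestinal microvilli, which is not a member, rose in the tumour line by 2.46 ± 0.22 against knockout and 2.52 ± 0.22 against wild-type, from means of 6.41 and 6.35 to 8.87.

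Vil1 was higher in the tumour line at a low signal. Its probe set read 5.48, 5.29 and 5.44 on the wild-type arrays, 5.19, 5.02 and 5.26 on the knockout arrays and 6.49, 6.48 and 6.82 on the tumour arrays. The 3 lines did not overlap, but the tracheal lines differed by only 0.24, knockout below wild-type (adjusted p = 0.198). The tumour line was 2.71-fold above the knockout line (1.44 ± 0.11, adjusted p = 9.69e-07) and 2.29-fold above the wild-type line (1.19 ± 0.11, adjusted p = 4.12e-06). All tracheal values lay under the highest bacterial control, so these folds rest in part on background; against that control the tumour signal was at least 1.55-fold higher.

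Of 11 markers of the brush border and of tuft cells, the chemosensory airway cells that carry villin, 0 were called in any comparison by limma, and 0, 3 and 1 had an unadjusted p under 0.05, where 33.9%, 48.5% and 51% of all genes did. The tuft cell factor Pou2f3 read 6.43 to 6.68 and the tuft cell channel Trpm5 6.01 to 6.47 over the 9 arrays. The list's summed signal was 9.71 to 9.85 on the wild-type arrays, 9.78 to 9.85 on the knockout arrays and 9.83 to 9.90 on the tumour arrays. Vill, a villin-like gene of the same family, rose by 1.46 ± 0.09 against knockout and by 1.18 against wild-type. Pls1 and Eps8, which also act in microvilli, were read with the other bundlers and not in this list. In the tumour line Pls1 rose by 2.46 ± 0.22 against knockout and 2.52 ± 0.22 against wild-type, and Eps8 by 2.07 ± 0.13 against wild-type.

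Fscn1 had the largest fall among the members, and its probe sets differed in how far they fell. The brightest, 1416514_a_at, read 11.68, 11.70 and 11.84 on the wild-type arrays, 11.72, 11.60 and 11.96 on the knockout arrays and 5.21, 5.51 and 5.46 on the tumour arrays. The tracheal lines overlapped (0.02, 95% interval -0.23 to 0.28), and all tumour arrays lay near the floor. The tumour line was 82.7-fold below the knockout line (-6.37 ± 0.12, adjusted p = 3.54e-12) and 81.5-fold below the wild-type line (-6.35 ± 0.12, adjusted p = 2.75e-12). The tumour mean of 5.39 lay under the highest bacterial control, and against that control the folds were at least 55.8 and 55.0.

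The other 3 Fscn1 probe sets fell less or were not called. On 1416515_at and 1416516_at the tumour signals lay close to or under the highest bacterial control, 5.96, so these falls may not be measured in full. Probe set 1448378_at read 10.34, 9.81 and 10.01 on the wild-type arrays, 10.46, 9.68 and 9.84 on the knockout arrays and 8.40, 8.67 and 8.51 on the tumour arrays, a fall of 1.46 ± 0.19 against knockout and 1.52 ± 0.19 against wild-type (adjusted p = 6.42e-05 and 4.05e-05). Its tumour signal stayed well above the bacterial controls, unlike that of the brightest probe set. Probe set 1416515_at read 8.0, 7.0 and 6.40 on the wild-type arrays, 7.92, 7.39 and 7.84 on the knockout arrays and 6.08, 5.97 and 5.98 on the tumour arrays. It fell by 1.70 ± 0.30 against knockout (adjusted p = 0.000732) and by 1.12 ± 0.30 against wild-type (adjusted p = 0.0110), and without wild-type replicate 1 the latter was -0.69 and not called.

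Probe set 1416516_at read 6.89, 6.08 and 5.55 on the wild-type arrays, 6.38, 6.34 and 6.45 on the knockout arrays and 5.44, 5.56 and 5.32 on the tumour arrays, with differences of -0.95 and -0.73 against knockout and wild-type that did not reach 2-fold; the former was -1.01 and called without tumour replicate 2, and the latter -1.04 and called without wild-type replicate 3. On 1416515_at and 1416516_at the wild-type arrays spread widely (SD 0.81 and 0.68). On these probe sets, but not on the other Fscn1 probe sets, wild-type replicate 1 had the highest signal of the 3 and replicate 3 the lowest. Replicate 1 had a beta-actin 3′ minus 5′ control of 0.75 and replicate 3 one of 1.78. Without wild-type replicate 1 the knockout line was called above the wild-type line on 1416515_at (1.01, adjusted p = 0.00266). The part of RNA quality in these values was not tested.

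**Figure D2:**
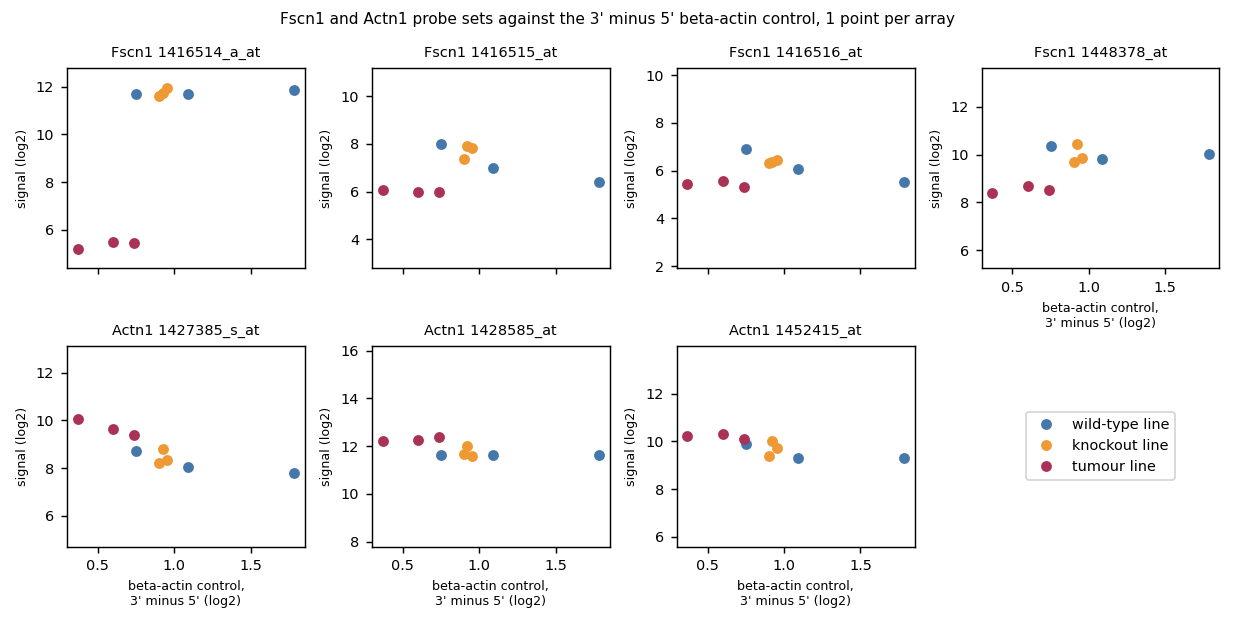
Log2 signal (y axis, the same span in every panel) of the 4 Fscn1 and 3 Actn1 probe sets against the 3′ minus 5′ difference of the beta-actin control on the same array (x axis, log2), 1 point per array, coloured by line. Fscn1 1416514_a_at lies 6.35 to 6.37 lower in the tumour line on average, while among the 3 wild-type arrays Fscn1 1416515_at and 1416516_at and Actn1 1427385_s_at are highest where the control is 0.75 and lowest where it is 1.78.

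Markers of airway basal cells were read beside Fscn1. Of 8, the tumour line had 6 lower against knockout and 7 lower against wild-type, and 0 higher, where 6.38% and 8.46% of all genes were called lower. Krt5, among those lower, had means of 14.46 and 14.38 in the tracheal lines and 8.43 in the tumour line. The knockout line had 2 of 8 lower against wild-type, where 2.98% of all genes were called lower. These were Trp63 (-1.36 ± 0.12) and Pdpn (-3.72 ± 0.10). The log2 of the list's summed signal was 16.25 to 16.37 and 16.24 to 16.26 in the tracheal lines and 9.48 to 9.72 in the tumour line. The part of these markers in the Fscn1 result was not tested. In cultured lines fewer cells of a type and less RNA per cell cannot be told apart.

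Ezrin, which anchors filaments to the membrane, was not called. Its brighter probe set, 1450850_at, read 11.60, 11.43 and 11.23 on the wild-type arrays, 11.03, 11.39 and 11.14 on the knockout arrays and 12.05, 11.71 and 12.06 on the tumour arrays. The tumour arrays lay above both others, by 0.76 ± 0.14 against knockout (95% interval 0.46 to 1.05, adjusted p = 0.000746) and by 0.52 ± 0.14 against wild-type (0.23 to 0.82, adjusted p = 0.00834), each past the p threshold and under 2-fold. The second probe set, 1456725_x_at, differed by 0.02 and 0.04, with intervals from -0.17 to 0.21 and -0.15 to 0.23; the suffix marks probes that may also match other transcripts.

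Moesin (Msn), the ezrin relative that is abundant outside epithelia, rose in the tumour against the wild-type line by 1.06 ± 0.10 (0.99 and not called without wild-type replicate 3), and radixin (Rdx) was not called in any comparison. Of 9 other genes that link membrane and cytoskeleton, 0 rose and 1 fell in the knockout line. Between tumour and knockout lines 1 rose and 0 fell, and between tumour and wild-type lines 3 rose and 1 fell. The shares called were 11.1%, 11.1% and 44.4%, beside 4.88%, 14.2% and 16.6% of all genes. The one that fell was podoplanin (Pdpn), a membrane protein that binds ERM proteins, which read 10.05 on average on the wild-type arrays, 6.33 on the knockout arrays and 6.23 on the tumour arrays. It fell by 3.72 ± 0.10 in the knockout line and fell by 3.83 ± 0.10 in the tumour line. Epb41l2, a membrane skeleton protein, rose by 1.16 ± 0.11 between tumour and knockout lines and by 1.57 ± 0.11 between tumour and wild-type lines, and the scaffold Slc9a3r2 (Nherf2) by 1.35 ± 0.13 in the latter. The list's medians were 0.14, -0.10 and -0.41.

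Among the alpha-actinins, Actn1 had higher tumour signals on all 3 probe sets, and 1 of them was called. Probe set 1427385_s_at read 8.73, 8.04 and 7.78 on the wild-type arrays, 8.81, 8.23 and 8.33 on the knockout arrays and 10.05, 9.65 and 9.41 on the tumour arrays, 2.37-fold above knockout (1.25 ± 0.24, adjusted p = 0.00128) and 2.86-fold above wild-type (1.52 ± 0.24, adjusted p = 0.000265). The beta-actin control on the same arrays was 0.75, 1.09 and 1.78, then 0.92, 0.90 and 0.95, then 0.37, 0.60 and 0.74, so that within the wild-type and tumour lines the higher signals went with the lower controls and the tumour line had the lowest beta-actin controls. The Gapdh control did not set the tumour line apart in this way, since its tumour values of 0.21, 0.45 and 0.75 overlapped those of both tracheal lines. The part of RNA quality in this difference was not tested.

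The brightest Actn1 probe set, 1428585_at, read 11.61 on all 3 wild-type arrays, 12.01, 11.67 and 11.59 in the knockout line and 12.22, 12.26 and 12.39 in the tumour line. The tumour arrays stood above the rest by 0.54 ± 0.11 against knockout and 0.68 ± 0.11 against wild-type (adjusted p = 0.00219 and 0.000346), under 2-fold. On 1452415_at the differences were 0.50 and 0.71. Actn4, the other non-muscle alpha-actinin, read 12.50, 12.46 and 12.36 on the wild-type arrays, 12.68, 12.63 and 12.52 on the knockout arrays and 12.38, 12.27 and 12.41 on the tumour arrays. It was not called, with -0.26 for tumour minus knockout (95% interval -0.45 to -0.07, adjusted p = 0.0364) and -0.09 for tumour minus wild-type (-0.28 to 0.10).

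**Figure D3:**
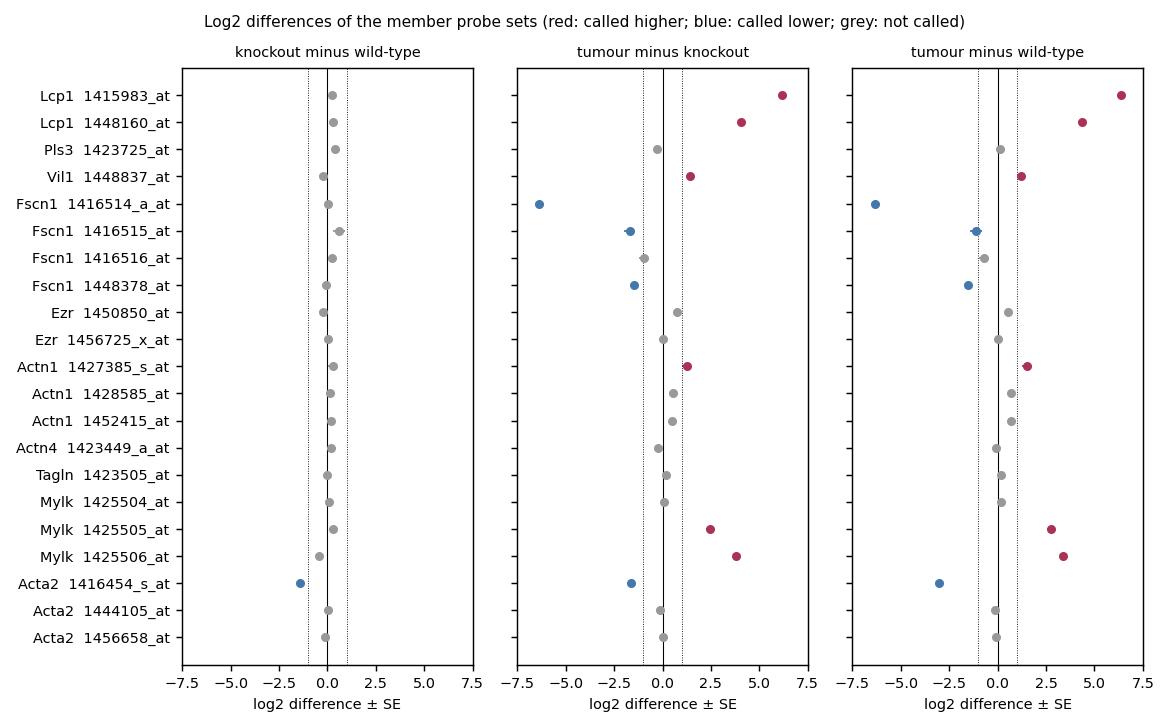
Log2 difference with its SE (x axis) of each member probe set (y axis) in the 3 comparisons; red points were called higher, blue points lower and grey points not called, and dotted lines mark 2-fold. Acta2 1416454_s_at at -1.41 is the only coloured point between the tracheal lines, and Lcp1 (6.17) and Fscn1 (-6.37) lie farthest out between tumour and knockout lines.

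Mylk, the kinase that starts contraction, was higher in the tumour line on 2 of its 3 probe sets. Probe set 1425506_at read 5.74, 5.95 and 5.48 on the wild-type arrays, 5.45, 5.47 and 4.98 on the knockout arrays and 8.97, 9.12 and 9.14 on the tumour arrays. The tumour arrays stood far above the rest, 13.7-fold over knockout (3.77 ± 0.15, adjusted p = 2.07e-09) and 10.2-fold over wild-type (3.35 ± 0.15, adjusted p = 4.63e-09). The tracheal values lay under the highest bacterial control, against which the tumour signal was at least 8.67-fold higher.

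Probe set 1425505_at read 4.77, 4.78 and 5.04 on the wild-type arrays, 5.41, 4.85 and 5.18 on the knockout arrays and 7.17, 8.03 and 7.57 on the tumour arrays. The tumour line was at least 5.42-fold above the wild-type line (2.73 ± 0.20, adjusted p = 3.76e-07), and above the knockout line by 2.44 ± 0.20 on the log2 scale (adjusted p = 1.17e-06). All knockout arrays lay under the highest bacterial control, against which the tumour signal was at least 3.09-fold higher than in either tracheal line. The third, 1425504_at, read 5.82 to 6.03 on all 9 arrays, near the highest bacterial control, and was not called (0.10 and 0.16). Mylk makes several transcripts, and which of them each probe set reads is not given in the sources used here.

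Acta2 fell in steps from the wild-type through the knockout to the tumour line on its bright probe set. Probe set 1416454_s_at read 11.40, 11.18 and 11.15 on the wild-type arrays, 9.87, 9.82 and 9.83 on the knockout arrays and 8.08, 8.38 and 8.23 on the tumour arrays, with no overlap between any pair of lines. The knockout line was 2.65-fold below the wild-type line (-1.41 ± 0.10, adjusted p = 1.69e-06), where 31.5% of all probe sets did not overlap between these lines and 2.11% were called lower. The tumour line was 3.05-fold below the knockout line (-1.61 ± 0.10, adjusted p = 1.41e-07) and 8.07-fold below the wild-type line (-3.01 ± 0.10, adjusted p = 5.06e-10).

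The other Acta2 probe sets, 1444105_at and 1456658_at, read 3.76 to 4.08 and 3.84 to 4.27 on the 9 arrays. They lay under the floor in every line and were not called, so the result rests on 1 probe set, whose suffix marks probes shared between transcripts. With the mean of the gene's probe sets the differences were -0.50 and -0.58 for knockout minus wild-type and tumour minus knockout, and neither was called. The related actins Acta1, Actc1 and Actg2, whose transcripts could share such probes, read 6.78 to 7.42, 6.18 to 6.57 and 5.42 to 5.90, and none was called in any comparison.

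Tagln, which accompanies Acta2 in smooth muscle, was not called. It read 6.04, 5.95 and 6.09 on the wild-type arrays, 5.69, 6.03 and 6.27 on the knockout arrays and 6.14, 6.18 and 6.21 on the tumour arrays, close to the highest bacterial control. The differences were -0.03 (95% interval -0.31 to 0.25), 0.18 (-0.10 to 0.46) and 0.15 (-0.13 to 0.43) in turn. A 2-fold difference in signal lay outside each interval. This near the bacterial controls, the intervals do not exclude a 2-fold difference in RNA.

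Of 10 smooth muscle markers 1, smoothelin (Smtn), was called: it fell by 1.09 ± 0.14 in the knockout and fell by 1.25 ± 0.14 in the tumour line against the wild-type line. The former was lost without wild-type replicate 1 (-0.94). In the 3 comparisons 10%, 0% and 10% of these markers were called, beside 4.88%, 14.2% and 16.6% of all genes. Myh11, the myosin that defines smooth muscle, read 5.32 to 5.74 and calponin Cnn1 5.09 to 5.35, both under the highest bacterial control on all 9 arrays. The log2 of the list's summed signal was 10.04 to 10.43 on the wild-type arrays, 9.74 to 9.75 on the knockout arrays and 9.63 to 9.73 on the tumour arrays.

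Fibroblast and myofibroblast markers had 1 of 15 lower in the knockout line, the matrix protein Sparc (-3.29 ± 0.22). Sparc was also lower in the tumour than in the wild-type line (-2.67 ± 0.22). In the 3 comparisons 6.67%, 6.67% and 13.3% of the list were called, beside 4.88%, 14.2% and 16.6% of all genes. An unadjusted limma p under 0.05 was reached by 33.3%, 33.3% and 66.7%, beside 33.9%, 48.5% and 51% of all genes. The log2 of the list's summed signal was 12.10 to 12.46 on the wild-type arrays, 11.46 to 11.84 on the knockout arrays and 12.73 to 12.84 on the tumour arrays. Fibronectin (Fn1) was called higher in the tumour line, by 1.43 against knockout and 1.27 against wild-type. Others differed without overlap, under 2-fold and in both directions. Vimentin (Vim) was 0.96 ± 0.16 and 0.83 ± 0.16 higher in the tumour line (limma adjusted p = 0.000544 and 0.00148). Dcn and S100a4 were 0.72 ± 0.13 and 0.69 ± 0.13 lower there than in the wild-type line (limma adjusted p = 0.000585 and 0.00103). The collagens Col1a1 and Col3a1 and the receptors Pdgfra and Pdgfrb were not called in any comparison. The part of either list in the Acta2 result was not tested. Endothelial markers had 0 of 8 called in any comparison by limma, with 1, 0 and 2 at an unadjusted p under 0.05, where 33.9%, 48.5% and 51% of all genes were.

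Other actin genes were read from 5 lists with 91 different measured genes, 1 probe set per gene. Between knockout and wild-type lines 1 rose and 5 fell (6.59% called, beside 4.88% of all genes). Between tumour and knockout lines 11 rose and 7 fell (19.8%, beside 14.2%), and between tumour and wild-type lines 13 rose and 10 fell (25.3%, beside 16.6%). Their medians were 0.02, -0.02 and 0.06.

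Among 20 other bundlers and crosslinkers 1 rose and 2 fell in the knockout line. Between tumour and knockout lines 5 rose and 2 fell, and between tumour and wild-type lines 6 rose and 2 fell (medians 0.01, 0.11 and 0.12). The shares called were 15%, 35% and 40%, beside 4.88%, 14.2% and 16.6% of all genes. Palladin (Palld), a scaffold of stress fibres, fell in both steps, with means of 12.94 on the wild-type arrays, 11.60 on the knockout arrays and 8.56 on the tumour arrays. It fell by 1.35 ± 0.11 and then fell by 3.03 ± 0.11. Synaptopodin (Synpo), which binds alpha-actinin, fell by 1.02 ± 0.17 in the knockout line, a call lost without wild-type replicate 1, knockout replicate 2 or knockout replicate 3, and fell by 2.02 ± 0.17 between tumour and wild-type lines. Eps8, which bundles and caps filaments in microvilli, rose by 1.15 ± 0.13 in the knockout line (1.00 and not called without wild-type replicate 1) and by 2.07 ± 0.13 between tumour and wild-type lines. Pdlim7, Lasp1 and filamin A (Flna) rose by 1.86, 1.42 and 1.12 in the tumour against the knockout line, and Pdlim1 fell by 1.12.

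Of 23 other contractile genes 0 were called higher in any comparison and 1, 2 and 3 lower (medians 0.04, -0.06 and -0.10). The shares called were 4.35%, 8.7% and 13%, beside 4.88%, 14.2% and 16.6% of all genes. An unadjusted limma p under 0.05 in either direction was reached by 34.8%, 47.8% and 52.2%, near the 33.9%, 48.5% and 51% of all genes. Beside Smtn, the tropomyosin Tpm2 fell by 3.84 ± 0.10 against knockout and fell by 3.93 ± 0.10 against wild-type. The non-muscle myosin Myh10 fell by 3.25 ± 0.12 and fell by 2.66 ± 0.12. Tpm2 read 11.80, 11.89 and 11.99, then 11.93, 11.85 and 11.61, then 7.95, 7.98 and 7.95 on the wild-type, knockout and tumour arrays. Others of the list passed the p threshold without overlap but under 2-fold, in both directions. Tpm1, Tpm3 and Cnn2 were higher in the tumour line, by 0.82, 0.76 and 0.66 against knockout and by 0.80, 0.80 and 0.78 against wild-type. Tpm4, Myl6 and the myosin phosphatase subunit Ppp1r12a were lower there (-0.63, -0.93 and -0.62, then -0.66, -0.69 and -0.81). The non-muscle myosin Myh9 and the kinase Rock1 were not called. The regulatory light chain Myl9 was not called either, but read 5.15 to 5.38, under the highest bacterial control.

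Of 25 actins and genes of filament turnover 0 rose and 1 fell in the knockout line. Between tumour and knockout lines 4 rose and 1 fell, and between tumour and wild-type lines 2 rose and 1 fell (medians -0.04, 0.23 and 0.13). The shares called were 4%, 20% and 12%, beside 4.88%, 14.2% and 16.6% of all genes. Cap1, which recycles actin monomers, set the knockout line apart, at 7.34, 7.58 and 7.35 there against 10.23, 9.93 and 10.02 in the wild-type and 11.16, 11.03 and 10.34 in the tumour line (-2.64 ± 0.18 and 3.42 ± 0.18). Enah, which extends filaments at the cell edge, fell by 2.63 ± 0.15 and fell by 2.76 ± 0.15 in the tumour line against knockout and wild-type. The formin Diaph3 rose by 2.11 and 2.35 and the severing protein Scin, of the villin family, by 1.69 and 1.89, while the monomer-binding Tmsb10 rose by 1.14 against knockout. The cytoplasmic actins Actb and Actg1 were not called.

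Of 14 factors and focal adhesion genes tied to serum response factor 0 were called in the knockout line by limma, with 9 (64.3%) at an unadjusted p under 0.05, where 33.9% of all genes were. Between tumour and knockout lines 1 rose and 2 fell, and between tumour and wild-type lines 2 rose and 3 fell (medians -0.08, -0.08 and 0.00). The shares called were 0%, 21.4% and 35.7%, beside 4.88%, 14.2% and 16.6% of all genes. Csrp2, a LIM protein of smooth muscle, fell by 3.21 ± 0.18 and fell by 4.02 ± 0.18, and Filip1l fell by 1.92 and fell by 1.51. Talin (Tln1), which couples integrins to actin, rose by 2.04 ± 0.15 and 1.68 ± 0.15, and the LIM protein Fhl2 by 1.84 ± 0.08 against wild-type. Srf itself fell by 1.22 ± 0.16 against the wild-type line, and its coactivators Mrtfa, Mrtfb and Myocd were not called.

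**Figure D4:**
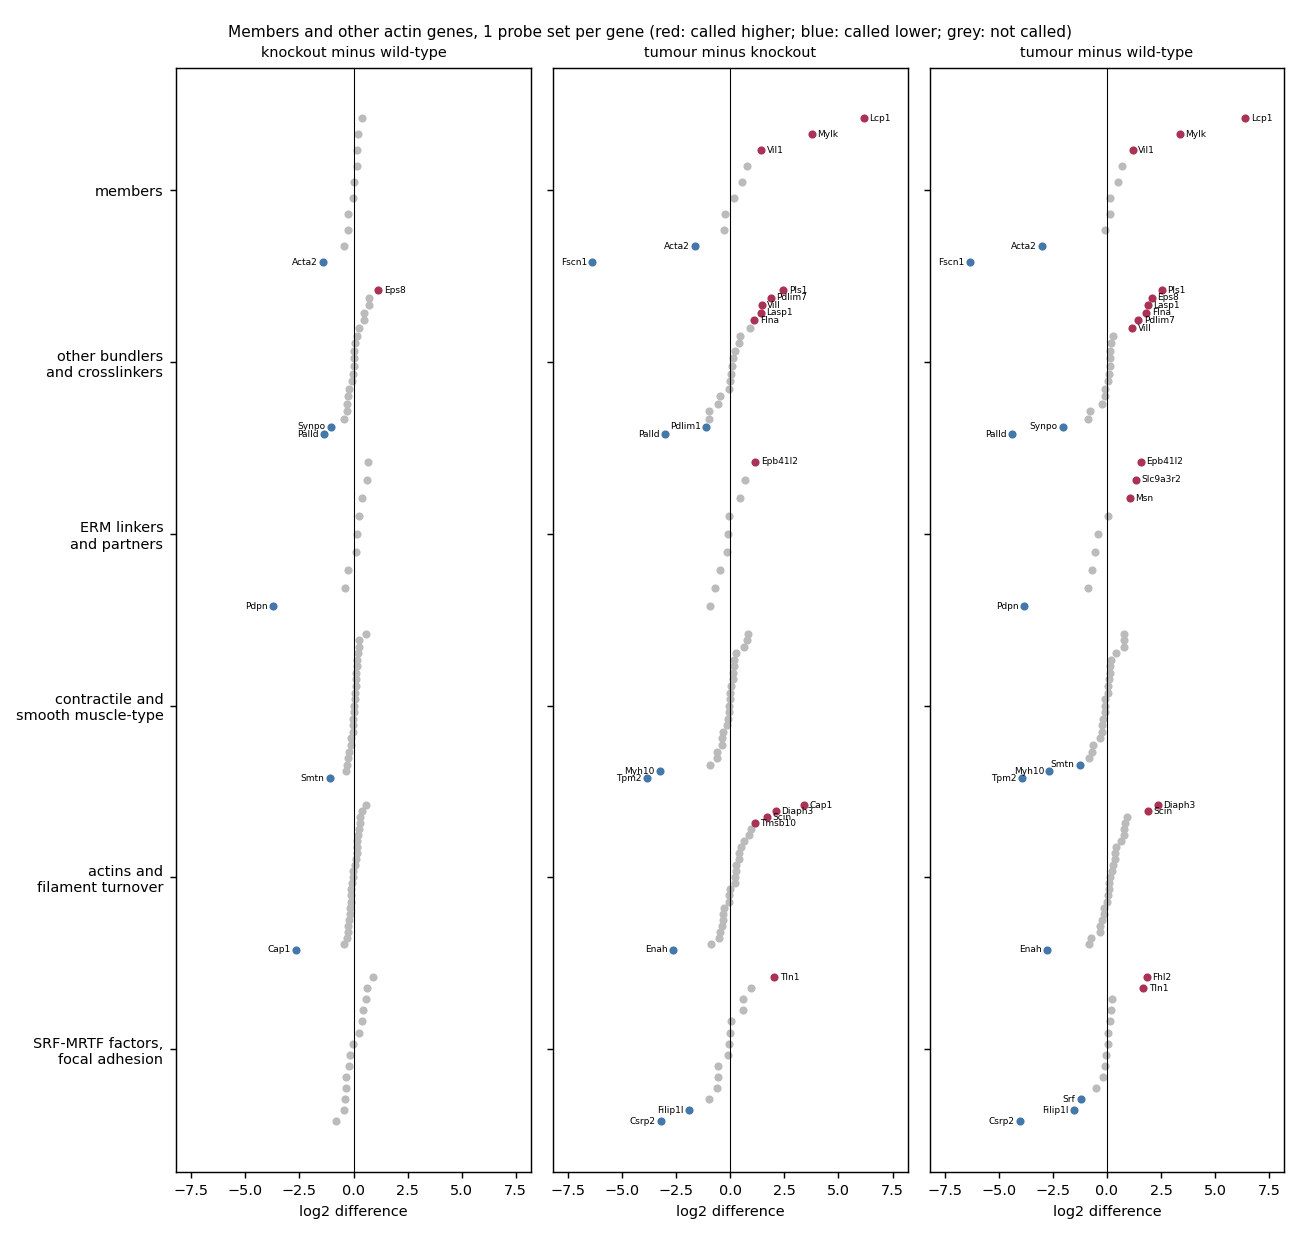
Log2 difference (x axis) of the 10 members and of the genes of the 5 lists (y axis, 1 row per gene within a list, sorted by difference), 1 probe set per gene, in the 3 comparisons; red points were called higher, blue lower and grey not called. Called genes lie on both sides of 0 within the members and most lists. Among the contractile genes only blue points are coloured, while grey points lie on both sides of 0.

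For each of the 5 members called on its brightest probe set, the 3 genes with the most similar profile were found by the root mean square distance between values centred on their own mean, over the 9 arrays. Nearest to Lcp1 were the chemokine Cxcl3 (0.21 log2), Ankrd1 (0.29), a nuclear protein of stretched muscle, and Bcl2l15 (0.31). Nearest to Mylk were the sodium-proton exchanger Slc9a2 (0.19), the claudin Cldn2 (0.23) and the mannose receptor Mrc1 (0.25). Vil1 lay closest to Donson (0.09), the nuclear pore gene Nup160 (0.10) and the kinase Akt1 (0.11). For Fscn1 they were the small heat shock protein Hspb1 (0.14), the basal keratin Krt15 (0.21) and the calcium sensor Vsnl1 (0.22), and for Acta2 the guidance molecule Rgma (0.13), the aldolase Aldoc (0.15) and Purg (0.15). Hspb1 had means of 14.42 and 14.24 in the tracheal lines and 8.11 in the tumour line, and Rgma 9.21, 7.65 and 6.10 in the wild-type, the knockout and the tumour line. The 9 arrays come from 3 lines, so the likeness is one of 3 levels and not of 9 independent samples. Tracheal values of Lcp1 and Cxcl3 lay under the floor and those of Ankrd1 and Bcl2l15 under or close to it. Most tracheal values of Slc9a2 and Mrc1 and the tumour values of Vsnl1 also lay under it. The steps of these genes are not measured in full. Tracheal values of Vil1 and Mylk and tumour values of Fscn1 and Krt15 lay under the highest bacterial control, so their steps may not be either. All these distances describe the deposited values only.

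**Figure D5:**
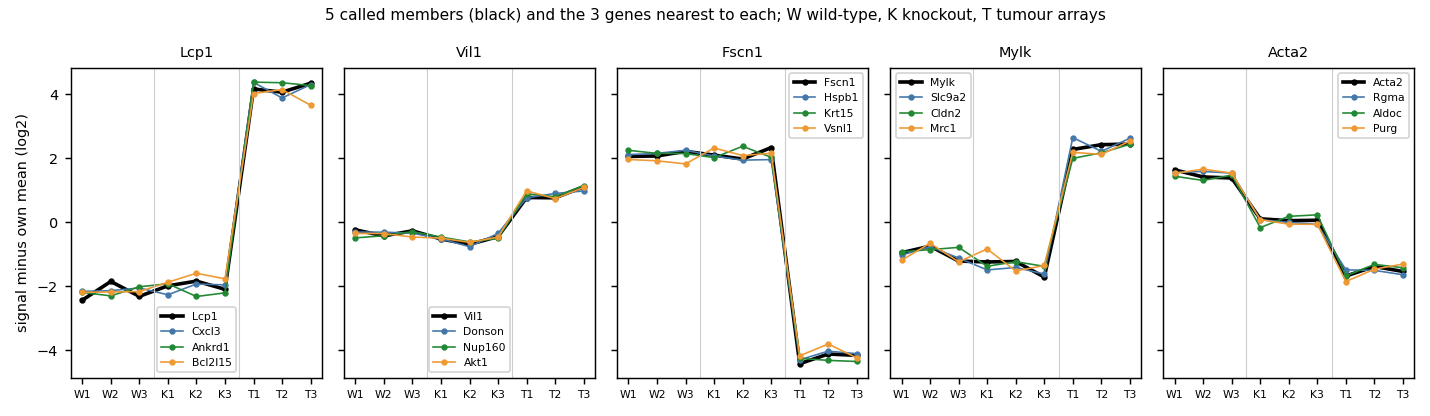
Log2 signal minus each gene's own mean (y axis) on the 9 arrays (x axis; W wild-type, K knockout, T tumour, numbered by replicate) for 5 members in black and the 3 nearest genes in colour. Lcp1, Vil1 and Mylk rise at the tumour arrays, Fscn1 drops there, and Acta2 drops at the knockout and again at the tumour arrays; the nearest genes lie 0.09 to 0.31 from the member.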

How the data were processed

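The deposited values are log2 signals, 1 per probe set and array, in a table of 45101 probe sets for 9 arrays; how the authors summarised and normalised them is not given in the sources used here, and they were used as deposited. Probe sets were named through the platform annotation: 64 were controls, 34945 carried 1 gene symbol, 932 several and 9160 none. All 21 member probe sets kept their symbol by Entrez ID in RefSeq. With limma 3.58.1 in R 4.3.3, 1 linear model per non-control probe set took in the 9 arrays of all lines (lmFit, eBayes, 6 residual degrees of freedom), with two-sided p-values adjusted by Benjamini-Hochberg over 45037 probe sets. Calls needed an adjusted p under 0.05 and at least 2-fold. Replicate error is given as the SE of the fit. Arrays give no counts, so their number limits the precision. A lower bound replaces a fold where all 3 dimmer arrays lay under the 95th percentile of 27 bacterial control probe sets. The named genes are all members, up to 6 called genes per list and comparison with the largest difference, the 3 genes nearest to each called member, and checks; the markers and uncalled genes named beside them were chosen after their values were seen. Members, lists and rules were chosen with earlier results of these data known. Same-numbered arrays were not treated as pairs. Alternatives covered normalisation, centring, dim probe sets, probe set choice, trend, fit, replicate block, fold threshold and leaving out each array.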

Additional observations from a re-analysis of the deposited data

How the results depend on the processing

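Over 21 alternative settings, 414 values were recomputed for the 21 called results of the members; 401 kept their call, 13 lost it and 0 changed direction. The 1.5-fold threshold and the setting without a fold threshold apply a looser cut to the same fit, so no call could be lost there. Where a setting left out a probe set, its result is not among the 414 and was not counted as lost. Of the 13, 10 were lost under a 4-fold threshold. The others were Acta2 with the mean of its probe sets, in both comparisons with the knockout line, and Fscn1 1416515_at without wild-type replicate 1. Quantile normalization, median centring, an intensity trend and fits on only the lines compared lost no member call.

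In the order knockout against wild-type, tumour against knockout and tumour against wild-type, the called member probe sets numbered 1, 10 and 10. With 1 probe set per gene the tumour comparisons had 5 and 5, and averaging the probe sets of each gene gave 0, 4 and 5 of 10 genes. When probe sets with the suffix _x_at or _s_at were left out the first was 0, and without a fold threshold it was 2. The 4-fold threshold gave 0, 5 and 6. Leaving out each array in turn gave 1 to 2, 10 to 11 and 9 to 11.

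Over all probe sets 1672, 5119 and 5908 were called. With 1 probe set per gene these were 888, 2578 and 3012, and with the mean 743, 2112 and 2530, since fewer features were tested. The 1.5-fold threshold gave 4129, 9950 and 10892, no fold threshold 7684, 15963 and 17021, and the 4-fold threshold 419, 1496 and 1774. Leaving out arrays gave 1665 to 1757, 5049 to 5324 and 5790 to 6093. The other actin genes called numbered 6, 18 and 23, with 15, 38 and 40 at 1.5-fold, 27, 56 and 48 without a fold threshold, and 2, 9 and 10 at 4-fold. Leaving out arrays gave 3 to 6, 18 to 22 and 22 to 24; the 3 was without wild-type replicate 1, which lost Eps8, Synpo and Smtn.

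Replicate numbers are shared between lines. Deviations of same-numbered arrays from their line means correlated between -0.15 and 0.28, and not all pairs were above 0.1, so the numbers were not taken as pairs. With the replicate block, 1, 10 and 10 member probe sets were called, as without it. Signals near the bacterial controls limit Tagln, Vil1, the tracheal Lcp1 and Mylk values and the tumour value of Fscn1: their folds depend on the floor chosen.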
